A study of Mus musculus with 3 samples.

Results

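Small nuclear RNAs (snRNAs) with reads on chromatin of mouse macrophages were described here for 32 genes. They were all genes whose transcript is annotated as snRNA and whose estimated count averaged 5 or more over 3 libraries, out of 1383 annotated snRNA genes. Their mean counts were therefore used to choose them, so the levels below are a description, and no level was tested. The cells were primary macrophages of the C57BL/6J strain, differentiated from bone marrow. They had been given 100 ng/ml Lipid A, the part of lipopolysaccharide that TLR4 recognises, for 10 min. RNA of the chromatin fraction, which stays with chromatin when nuclei are fractionated, was depleted of ribosomal RNA and sequenced. The 3 libraries formed a single group of biological replicates 1, 2 and 3, made from 1 µg, 250 ng and 500 ng of RNA with a size range of 250 to 400 per the labels. Each amount occurred once, so amount and replicate cannot be told apart. The labels give all 3 the same donor entry, and the spread between them may be partly technical. No unstimulated library was used, so a level does not show a response to Lipid A.

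Estimated counts of annotated genes summed to 15698066 in replicate 1, 16005795 in replicate 2 and 14386725 in replicate 3. All 10 listed macrophage markers had a TPM (an abundance corrected for transcript length) of 1 or more in every library. None of 18 markers of fibroblasts, mast cells, neutrophils, lymphocytes and red blood cell precursors did, and 8 of them, such as Ly6g and Cd3e, were at 0 counts in all libraries. The summed counts of these 18 markers were 48, 89 and 75 in replicates 1, 2 and 3, against 50635, 39554 and 32248 for the macrophage markers.

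The spliceosome removes introns and is built from snRNAs and their proteins, together called snRNPs. In the major spliceosome, U1 pairs with the 5′ splice site, U2 pairs with the branch point, and U4, U5 and U6 join as a tri-snRNP. A minor spliceosome uses U11, U12, U4atac and U6atac with U5 on a rare class of introns. Most snRNAs are made by RNA polymerase II, cut at the 3′ end by the Integrator complex, loaded in the cytoplasm with a ring of Sm proteins on a short U-rich site, and returned to the nucleus. U6 is instead made by RNA polymerase III and carries an Lsm ring. In mouse, most of these RNAs are encoded by several near-identical gene copies and by many scattered copies annotated as snRNA genes.

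The 32 genes were made up of 18 genes most like U1, 11 most like U2, the U12 gene Rnu12, and a pair of 141-base genes, Gm24265 and Gm24407. Genes with only a Gm symbol were grouped by the identity of their annotated transcript to a named snRNA, with 70% as the minimum. The 141-base pair matched no named snRNA of the annotation above 52.2% and is called by its length. No U4 gene was among these named snRNAs, so likeness to U4 was not scored. The sequences below are the leading sequence of each group, as GENCODE M21 gives the transcripts (mm10, coding strand, T for U). Capitals mark the stretch ACTTACCTG of the U1 5′ end, which pairs with the 5′ splice site, the stretch GTAGTA of U2, which pairs with the branch point, and ATTTNTG, a form of the Sm site. In this order they lie at chr11:87422867-87423030, chr11:101658238-101658428, chr15:83149644-83149794 and chr5:115489459-115489599, all on the plus strand.
Rnu1a1: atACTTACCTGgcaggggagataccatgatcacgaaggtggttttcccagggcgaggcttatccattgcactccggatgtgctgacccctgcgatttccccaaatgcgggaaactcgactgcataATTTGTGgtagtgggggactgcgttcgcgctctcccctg
Rnu2-10: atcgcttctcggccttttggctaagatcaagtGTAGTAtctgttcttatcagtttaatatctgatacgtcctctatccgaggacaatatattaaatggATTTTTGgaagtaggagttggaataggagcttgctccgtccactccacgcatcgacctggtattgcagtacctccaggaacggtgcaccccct
Rnu12: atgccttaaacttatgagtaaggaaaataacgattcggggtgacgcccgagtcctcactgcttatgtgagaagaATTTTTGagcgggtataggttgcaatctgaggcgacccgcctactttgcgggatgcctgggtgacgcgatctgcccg
Gm24265: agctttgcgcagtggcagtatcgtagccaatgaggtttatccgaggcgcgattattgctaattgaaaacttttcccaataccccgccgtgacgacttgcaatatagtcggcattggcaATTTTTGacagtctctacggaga

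ACTTACCTG began at base 3 in 16 of the 18 U1-group genes and occurred in 55 of all 1383 annotated snRNA genes (3.98%). GTAGTA began at base 33 in all 11 U2-group genes and occurred in 51 of the 1383 (3.69%). ATTTNTG, searched like the others on the transcript strand, occurred in 31 of the 32 genes and in 283 of the 1383 (20.5%). Of the 1383, 821 were most like U6, and the U1 and U2 groups were formed by identity to RNAs that hold these stretches. The shares thus follow in part from class and grouping, and are not a result about genes with reads. The stretches did not overlap each other. Gm24041 held none of the 3 stretches, and Gm24145 held ATTTNTG at base 147 but not the U1 5′ stretch. These were also the 2 genes with the lowest identity to a named U1, at 73.2% for Gm24041 and 80.6% for Gm24145. The 141-base pair held ATTTNTG at base 119. Its longest stretch complementary to Rnu6 was 8 bases, TTGCGCAG from base 5, in both genes. U4 is known to pair with U6. No snRNA gene is named as U4 in the annotation used, so the low identity of the pair does not show that it is not U4.

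Several abundant genes differed from a named snRNA at only a few bases. The next sequences show these differences in capitals, against Rnu2-10 for the first 3, against Rnu1a1 for the following pair and against Gm24265 for the last. In this order they lie at chr1:72236946-72237136, chr1:72244213-72244403, chr1:72255008-72255198, chr12:54696782-54696945, chr3:96488729-96488893 and chr5:115490254-115490394, all on the plus strand.
Gm23472: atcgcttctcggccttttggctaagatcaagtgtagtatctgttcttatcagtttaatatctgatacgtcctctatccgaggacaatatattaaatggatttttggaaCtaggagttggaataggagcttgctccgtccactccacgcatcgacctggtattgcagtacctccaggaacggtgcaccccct
Gm24497: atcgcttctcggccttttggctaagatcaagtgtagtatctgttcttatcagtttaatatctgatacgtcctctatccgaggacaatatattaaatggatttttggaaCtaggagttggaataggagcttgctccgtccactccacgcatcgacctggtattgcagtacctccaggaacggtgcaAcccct
Gm25939: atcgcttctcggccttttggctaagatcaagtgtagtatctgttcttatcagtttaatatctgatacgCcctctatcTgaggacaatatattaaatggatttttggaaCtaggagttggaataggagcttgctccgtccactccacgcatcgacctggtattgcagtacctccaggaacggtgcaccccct
Gm22513: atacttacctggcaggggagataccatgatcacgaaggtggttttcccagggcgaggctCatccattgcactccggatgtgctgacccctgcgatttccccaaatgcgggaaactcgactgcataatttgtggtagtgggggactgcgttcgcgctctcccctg
Gm22614: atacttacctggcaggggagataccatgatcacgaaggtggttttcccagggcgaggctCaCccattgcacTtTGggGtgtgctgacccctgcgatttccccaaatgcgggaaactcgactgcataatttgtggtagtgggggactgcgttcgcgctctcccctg
Gm24407: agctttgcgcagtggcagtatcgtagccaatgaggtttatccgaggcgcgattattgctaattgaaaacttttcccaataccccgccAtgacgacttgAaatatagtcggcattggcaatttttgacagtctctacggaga

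Counting positions from 1 at the 5′ end, with the base of the sequence it is set against first, Gm23472 differed from Rnu2-10 by G109C alone. Gm24497 carried G109C and C186A, so it differed from Gm23472 by C186A alone. Gm25939 carried T69C, C78T and G109C. Gm22513 differed from Rnu1a1 by T60C, and Gm24407 from Gm24265 by G88A and C99A. Gm22614 had 5 substitutions and 1 added base against Rnu1a1. Set against Gm22614, Rnu1b1 differed by C33T alone.

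The 32 genes held 0.125%, 0.170% and 0.255% of all estimated counts in replicates 1, 2 and 3. The 95% Clopper-Pearson intervals, which cover counting error only, were 0.123% to 0.126%, 0.168% to 0.172% and 0.253% to 0.258%. The mean was 0.183% ± 0.0664 (SD, n = 3), and the intervals of the 3 libraries did not overlap. As a share of TPM the same genes held 8.98%, 11.7% and 12.6%. TPM divides each count by an effective length, the number of positions at which a fragment could start. For these short RNAs that length was only 3.27 to 23.4 bases in the gene tables, so TPM and counts weigh the genes differently, and counts are used below unless TPM is named. For comparison, 69 small nucleolar RNA (snoRNA) genes past the same count minimum held 0.478%, 0.341% and 0.396% of counts, and 9 small Cajal body RNA (scaRNA) genes held 0.171%, 0.180% and 0.170%. The share of the snRNA genes was thus highest in replicate 3, that of snoRNA genes in replicate 1, and that of scaRNA genes varied least.

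**Figure D1:**
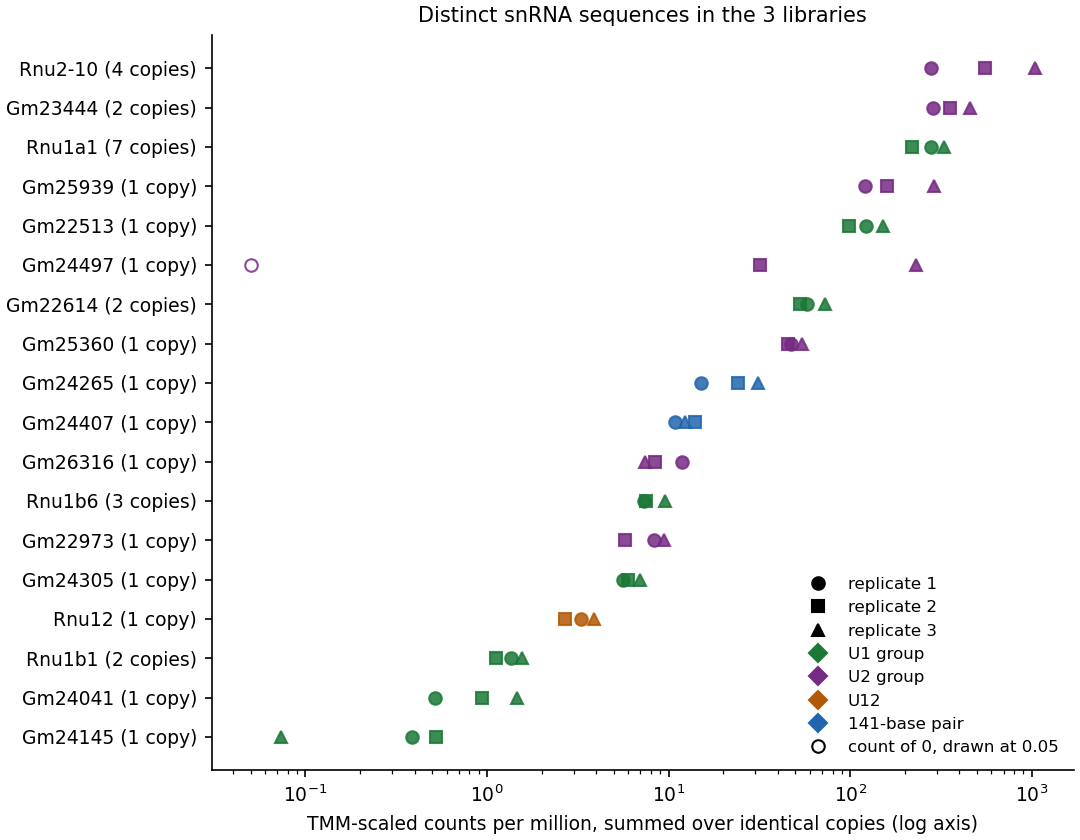
Scaled CPM (TMM-scaled counts relative to library size, log axis) of the 18 distinct sequences of the 32 snRNA genes, with identical copies summed. Each point is 1 library, the marker gives the replicate, the colour gives the group, and the open circle marks the count of 0 of Gm24497 in replicate 1. The Rnu2-10 sequence lies at 279, 557 and 1037 scaled CPM in replicates 1, 2 and 3, and the Rnu1a1 sequence at 280, 219 and 327. Counts are not corrected for length, so the positions of different sequences are not a ranking of RNA levels.

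Levels between libraries are given as scaled CPM, counts relative to library size after TMM scaling. Counts are not corrected for length, so they are not compared between genes here, except as shares of the counted reads. The U1 group summed to 475, 386 and 571 scaled CPM in replicates 1, 2 and 3, a mean of 477 ± 92.4 (SD, n = 3). Its 18 genes carried 8 distinct sequences. The U1a sequence of Rnu1a1 is shared by 7 annotated genes, Rnu1a1, Gm22068, Gm22317, Gm22634, Gm23804, Gm25679 and Gm26444. Together they had 280, 219 and 327 scaled CPM in replicates 1, 2 and 3. Each of the 7 was listed with the same 621, 534 and 635 counts, and the copies of each other identical sequence were likewise listed with equal counts. Gm22513, which differs at T60C, had 1895, 1694 and 2063 counts of its own. Replicate 2 was the lowest and replicate 3 the highest for both sequences.

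U1b is a variant of U1 in mouse that is known from embryonic and other immature tissues, and Rnu1b1, Rnu1b2 and Rnu1b6 carry its name. Rnu1b1 and Rnu1b2 have 1 sequence and were listed with 10.5, 9.62 and 10.6 counts each. Rnu1b6 and its identical copies Gm24830 and Gm26232 had 38.0, 42.6 and 43.1 counts each. Gm22614 and its identical copy Gm25890, at 99.4% identity to Rnu1b1, had 451, 452 and 492 counts each and so held most of the counts of these 7 genes. All 7 lie in 1 cluster on chromosome 3, which summed to 66.6, 61.4 and 83.6 scaled CPM in replicates 1, 2 and 3. The other U1-group genes with high identity to a named U1 were Rnu1a1 and Gm22068 on chromosome 11, with 79.9, 62.4 and 93.5 scaled CPM together, and the 7 genes of a cluster on chromosome 12, among them Gm24305 with 87.7, 103 and 94.4 counts. The chromosome 12 cluster summed to 327, 261 and 393 scaled CPM. In these 3 clusters, too, replicate 3 was the highest and replicate 2 the lowest.

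The U2 group summed to 754, 1164 and 2086 scaled CPM in replicates 1, 2 and 3, a mean of 1335 ± 682 (SD, n = 3). Its 11 genes carried 7 sequences. Rnu2-10 and its identical copies Gm23849, Gm23971 and Gm24950 were listed with 1087, 2381 and 3522 counts each, or 279, 557 and 1037 scaled CPM together. Gm25939, whose sequence is its own, had 1877, 2742 and 3924 counts, or 121, 160 and 289 scaled CPM. Both sequences were lowest in replicate 1 and highest in replicate 3. Gm23472 and Gm23444, which are identical, had 2227, 3044 and 3120 counts each.

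Gm24497 differs from that pair at C186A only and had 0, 549 and 3120 counts in replicates 1, 2 and 3. The deposited standard deviation of its count from read assignment was 223, 765 and 1039. In replicate 3 its count equalled that of Gm23472 and Gm23444, so the split among these genes is uncertain. The sum of all 3 genes does not depend on that split. It was 4454, 6637 and 9360 counts, or 286, 388 and 689 scaled CPM, again lowest in replicate 1 and highest in replicate 3. The remaining U2-group genes did not show this order in full. Gm25360 had 732, 778 and 736 counts, or 47.1, 45.5 and 54.2 scaled CPM. Gm26316, which differs from Rnu2-10 by C170T, had 184, 144 and 101 counts and was highest in replicate 1. Gm22973, with 9 substitutions, had 129, 99 and 129 counts.

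U12 takes the place of U2 at the branch point in the minor spliceosome. Rnu12, the single U12 gene past the minimum (chromosome 15, 83149644 to 83149794, plus strand), had 51, 46 and 53 counts, or 3.28, 2.69 and 3.90 scaled CPM in replicates 1, 2 and 3. Of the 141-base pair on chromosome 5, Gm24265 had 236, 414 and 424 counts and Gm24407 had 168, 238 and 168. The pair summed to 26.0, 38.1 and 43.6 scaled CPM, a mean of 35.9 ± 9.01 (SD, n = 3). Their assignment standard deviation was 0 in all libraries. On the TPM scale Gm24265 averaged 5556 ± 1492 and Rnu12 491 ± 49.6 (SD, n = 3), over effective lengths of 3.27 to 4.5 bases and of 5.25 to 6.99 bases.

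U2-group genes took 59.9%, 73.2% and 77.1% of the counts of the 32 genes in replicates 1, 2 and 3, a mean of 70.1% ± 9.00 (SD, n = 3). U1-group genes took 37.7%, 24.3% and 21.1%, a mean of 27.7% ± 8.82. The 141-base pair took 2.07%, 2.39% and 1.61%, and Rnu12 0.261%, 0.169% and 0.144%. The ratio of U2-group to U1-group counts was 1.59, 3.01 and 3.65, a mean of 2.75 ± 1.06 (SD, n = 3). Calculated from TPM, the ratio was 0.751, 1.45 and 1.86, a mean of 1.35 ± 0.559. It was thus below 1 in replicate 1 by TPM and above 1 by counts in every library, and on both scales it was lowest in replicate 1 and highest in replicate 3.

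The difference between libraries was set beside that of all 17493 genes with a mean count of 5 or more. Summed over the 32 genes, the log2 ratio of 1 replicate to the mean of the others was -0.77, -0.32 and 0.92 for replicates 1, 2 and 3. The U2 group had -1.11, -0.29 and 1.12, and the U1 group -0.01, -0.44 and 0.41. The median over all genes was -0.01, -0.00 and -0.01. A scaled count highest in replicate 3 was found for 29 of the 32 snRNA genes, against 29.1% of all genes. Because identical copies share 1 value, the same is better read as 15 of 18 sequences. The exceptions were Gm24407, Gm26316 and Gm24145. A value lowest in replicate 1 was found for 15 of 32 genes and 9 of 18 sequences, against 36.5% of all genes, and both together for 14 genes and 8 sequences, against 16.1%. Of the 14 genes, 8 belonged to the U2 group and 5 to the U1 group.

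Other classes of short RNA had other ratios. The log2 ratios of replicates 1, 2 and 3 to the others were 0.39, -0.50 and 0.07 for snoRNA genes, -0.02, -0.07 and 0.08 for scaRNA genes and 1.25, -0.66 and -0.85 for genes of the biotype misc_RNA. Mitochondrial genes held 0.0926%, 0.0407% and 0.0343% of counts, and Gm26917 and Gm42418, at the ribosomal RNA locus, held 16.9%, 12.9% and 15.1%. The libraries also differed in the effective length computed for them, which for a 191-base RNA was 23.4, 17.9 and 21.6 bases in the gene tables. The part of any of these in the snRNA levels was not tested. In these bulk samples, fewer cells with an RNA and less RNA per cell cannot be told apart.

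**Figure D2:**
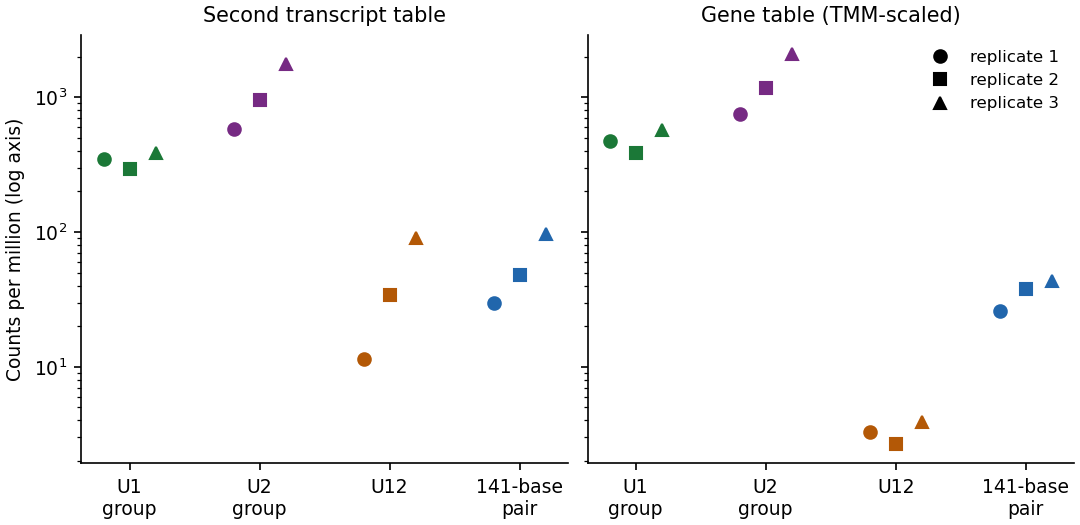
CPM (counts relative to library size, log axis) of the 4 snRNA groups by replicate, as total-scaled counts of the second transcript table (left) and TMM-scaled counts of the gene table (right). Each point is 1 library. The U2 group is highest in replicate 3 and lowest in replicate 1 in both panels, while Rnu12 is 11.4, 33.9 and 90.3 on the left and 3.28, 2.69 and 3.90 on the right for replicates 1, 2 and 3.

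The deposited gene tables pair each count with a standard deviation from read assignment, which is large where reads fit several copies equally well. Averaged over the libraries, it reached 25% or more of the count for 21 of the 32 genes (65.6%), against 1.73% of all genes with a mean count of 5 or more. Among snoRNA genes past the same minimum, 8 of 69 (11.6%) reached it, and none of the 9 scaRNA genes did. Of the 32, 20 genes have an annotated copy of identical sequence, and all 20 were among the 21, with 34.7% to 90.1%. The other gene was Gm24497, with 55.2%. The 12 genes without an identical copy included 9 under 1%, such as Gm25939 with 0.0314% and Gm22513 with 0.0184%, and 6 genes had a standard deviation of 0 in all libraries. The genes at 25% or more held 76.8% of the counts of the 32, so most snRNA counts belong to a sequence and cannot be placed at 1 gene.

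**Figure D3:**
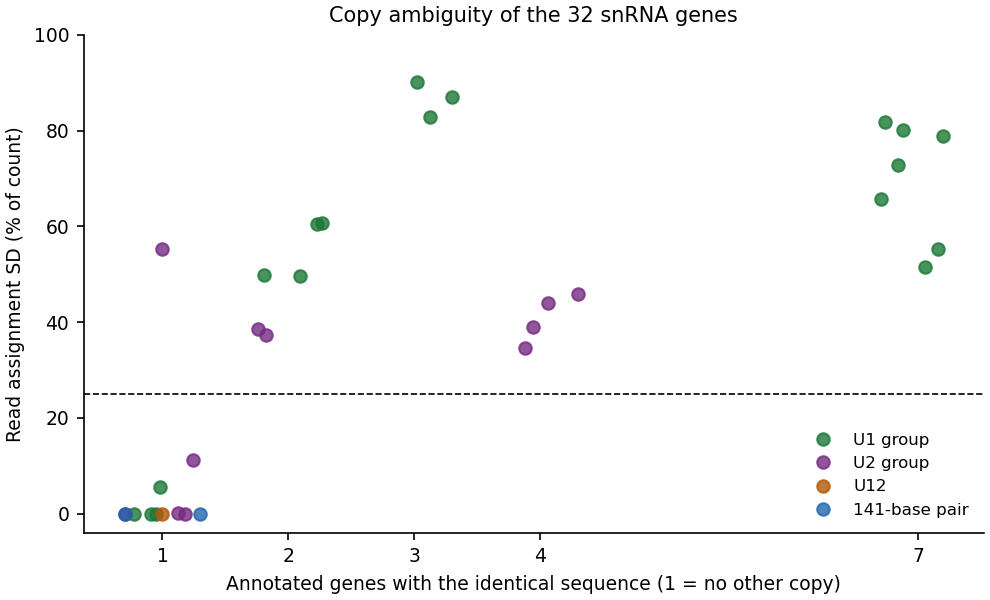
Read assignment standard deviation as a percent of the estimated count, averaged over 3 libraries, for the 32 snRNA genes (vertical axis) by the number of annotated genes with the identical sequence (horizontal axis). Each point is 1 gene, points are spread sideways to separate them, and the dashed line is at 25%. All 20 genes with identical copies lie above the line, and Gm24497, with no identical copy, lies above it at 55.2%.

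The authors also deposited a second transcript table, counted directly from the reads without an alignment. Its totals were 23952474, 28155711 and 24946455 estimated counts in replicates 1, 2 and 3. All 32 genes had a higher mean count there than in the gene table, by 1.15-fold to 23.2-fold. The median log2 ratio was 0.47 for the 32 genes, against 0.82 for all genes with a mean count of 5 or more. At least 2-fold the count was found for 5 of the 32, against 37.9% of all these genes. The tables come from the same reads, so these ratios describe the counting, and they have no replicate test.

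The 5 genes past 2-fold were Rnu12, Gm24041, Gm24145, Gm24265 and Gm24407. Rnu12 had 273, 956 and 2254 counts in the second table, against 51, 46 and 53 in the gene table. After scaling, replicate 1 was the lowest library in the second table and replicate 2 in the gene table. Gm24265 had 453, 943 and 1866 counts in the second table, against 236, 414 and 424 in the gene table. Gm24407 had 259, 415 and 541, against 168, 238 and 168. Gm24041 had 177, 307 and 251, against 8, 16 and 20, and Gm24145 had 39.0, 61.0 and 30.0, against 6, 9 and 1.

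The U2 and U1 groups kept their order of libraries in the second table. U2-group genes had 580, 956 and 1764 CPM there, and U1-group genes 351, 294 and 384. The ratio of U2-group to U1-group counts was 1.65, 3.25 and 4.59 in the second table. Scaled by total counts only, a value highest in replicate 3 was found for 29 of the 32 genes, against 13.8% of all genes in that table. The 29.1% of all genes in the gene table was after TMM scaling, so these 2 shares of all genes are not alike in scaling. Identical copies share 1 value here too. The exceptions were Gm26316, Gm24145 and Gm24041, whereas Gm24407 was highest in replicate 3 in the second table. Gm24497 had 626, 1832 and 2233 counts in the second table, so its 0 in replicate 1 depends on the table. Effective lengths in that table were also lowest in replicate 1 and highest in replicate 3, with 47.6, 52.5 and 60.0 bases for a 191-base RNA in replicates 1, 2 and 3, and their part in these counts was not tested.

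**Figure D4:**
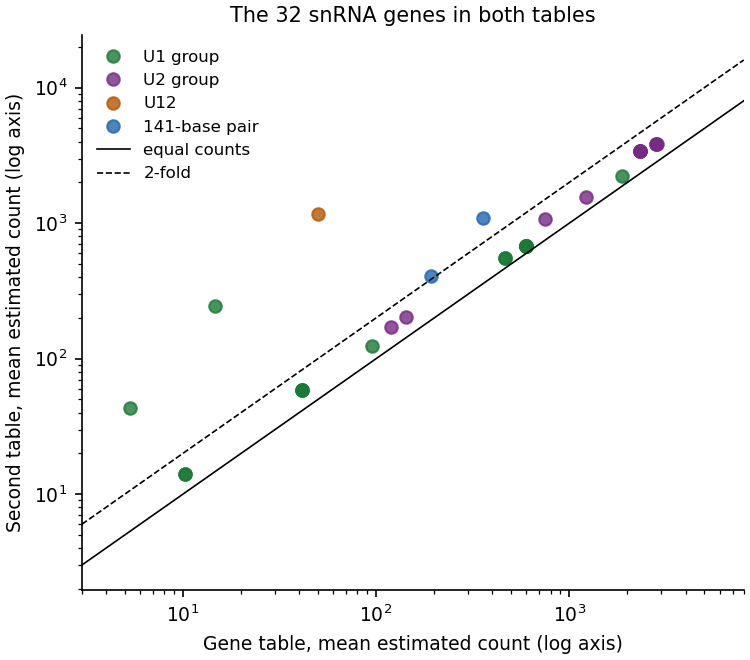
Mean estimated count over 3 libraries of the 32 snRNA genes in the second transcript table (vertical, log axis) and in the gene table (horizontal, log axis). Each point is 1 gene, identical copies overlie each other, the solid line is equality and the dashed line is 2-fold. Rnu12 is farthest from equality, with 1161 counts in the second table against 50 in the gene table.

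The 32 genes were longer than most annotated snRNA genes. They were 141 to 191 bases long, a range that held 245 of the 1383, whereas the median annotated snRNA gene had 107 bases and 1079 had 120 or fewer. Of these 1079, 168 reached a mean count of 5 in the second table and none in the gene table, where their effective length was 0 to 1.06 bases. In all, 244 snRNA genes reached it in the second table, including all 32. Of 113 genes of 161 to 180 bases, 34 reached the minimum in the second table and 17 in the gene table. Of 35 genes of 181 to 200 bases, 16 and 11 did. Of the 1383 genes, 1317 were at 0 in all gene tables, 34 were above 0 but under the minimum, and 186 of those at 0 averaged 5 or more counts in the second table. The 32 genes held 85.2% of all snRNA counts in the second table.

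**Figure D5:**
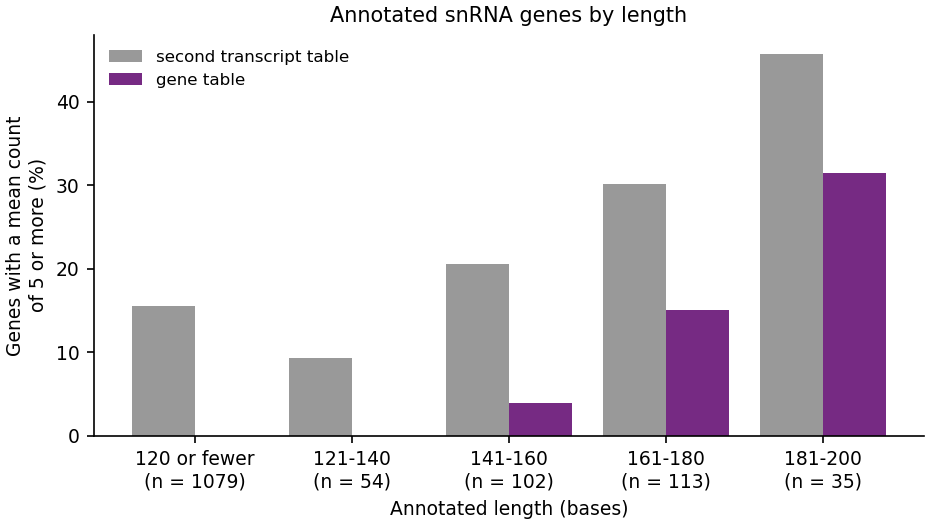
Percent of annotated snRNA genes with a mean count of 5 or more, by annotated length in bases, in the second transcript table (grey) and in the gene table (purple). The number of genes per length class is given on the axis. Of the genes of 120 bases or fewer, 15.6% reached the minimum in the second table, and no gene of 140 bases or fewer did in the gene table.

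The remaining spliceosomal snRNAs with a named gene fell mostly in this short range. U4 had no named gene to compare with, so whether it is among the 32 was not determined. U6, at the centre of the catalytic spliceosome, is represented by 821 annotated genes by likeness, of which 126 averaged 5 or more counts in the second table, and none is among the 32. The 821 genes summed to 2964, 4900 and 3876 counts in the second table, against 0, 1 and 0 in the gene table. Of the 821, 184 had 95% identity or more to a named U6 gene. The sums thus include less similar copies and need not be U6 RNA. Reads of a host's unspliced RNA could be counted to copies within introns, and this was not tested. Rnu6 itself had at most 0.260 counts in a library of the second table. Rnu5g, a U5 gene of 116 bases, had 3.76, 53.7 and 161 counts in the second table and 0 in the gene table. All 11 U5-like genes summed to 79.6, 297 and 631 counts in the second table. Rnu11, the U11 gene, had 0, 0 and 9.39 counts there, and Rnu7, the U7 gene of histone mRNA processing, had 0 in both tables. The effective length of Rnu5g, Rnu6 and Rnu7 was 0 in all gene tables, so a 0 there does not show that the RNA was absent.

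Most U1-like and U2-like genes in the annotation did not reach the minimum either. Of 137 U1-like genes, 25 had 95% identity or more to a named U1, and 16 of those 25 were among the 32. Of 27 U2-like genes, 13 had such identity to Rnu2-10, and 11 were among the 32. Of the 126 genes of both kinds with lower identity, 2 were, Gm24041 and Gm24145. Gm23238, a U1-like gene of 97.6% identity on chromosome 19, named after its values were seen, had 129, 186 and 352 counts in the second table but 0 in the gene table.

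The genes nearest the minimum of 5 were Gm24145, with a mean of 5.33 counts, and Rnu1b1 and Rnu1b2 with 10.3 each. Just below it were Gm25541 with 5, 1 and 1 counts, Gm26020 with 2, 2 and 3 and Gm22214 with 2 in each library. No snRNA gene averaged between 2.33 and 5.33 counts. Gm25541 and Gm22214 could not be assigned to a class by likeness, and Gm26020 is U2-like.

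The 32 genes lie close together in the genome. Within 100 kb of another of them were 27 of 32 (84.4%), while 218 of all 1383 snRNA genes (15.8%) lie as near to another snRNA gene. Of the 32, 20 have identical copies, which were listed with equal counts and so passed the minimum together. The 1383 also include 821 U6-like genes, so the 2 shares differ in the classes they cover. In mm10, 4 U2-group genes lie on chromosome 1 from 72226240 to 72255198, namely Gm25360, Gm23472, Gm24497 and Gm25939, with summed counts of 311, 416 and 802 scaled CPM in replicates 1, 2 and 3. Another 5 U2-group genes, Gm26316, Gm23849, Gm24950, Gm23971 and Rnu2-10, lie on chromosome 11 from 101604850 to 101658428, with 291, 565 and 1044 scaled CPM. Rnu1a1 and Gm22068 lie on chromosome 11 from 87422867 to 87426879. The 7 genes of the chromosome 12 cluster, led by Gm22513, span 54696782 to 54738622, the 7 of the chromosome 3 cluster span 96328425 to 96488893, and the 141-base pair spans 115489459 to 115490394 on chromosome 5. Sums over a cluster rest partly on how identical copies elsewhere share reads, as between Gm23472 on chromosome 1 and Gm23444 on chromosome 11.

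Overlap with other genes was read for the 32 only, so it is not set beside all 1383 annotated snRNA genes. No other annotated gene overlapped 22 of the 32, and 10 lie within introns of another gene. The 3 with the highest counts were Gm25939 and Gm23472, in introns of the long non-coding RNA gene D230017M19Rik, and Gm23849, in an intron of the protein-coding gene Rdm1, all on the strand of the host. D230017M19Rik had a TPM of 1.08, 1.31 and 0.70 in replicates 1, 2 and 3, and Rdm1 6.73, 3.86 and 4.16. Gm23849 and Gm23472 have identical copies elsewhere, so their counts cannot be placed at these introns. The 2 genes least like a named U1 lie in introns of hosts with a higher TPM, on the same strand. Gm24041 lies within Tmem65, with a TPM of 50.3, 60.8 and 55.7, and Gm24145 within Zc3h7a, with 322, 302 and 312. Reads of the host's unspliced RNA could be counted to a gene within its intron, and this was not tested.

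RNAs of the snRNP proteins and of the factors that make and mature snRNAs were read from 11 gene lists. Of 104 such genes, 95 (91.3%) had a TPM of 1 or more in every library, compared with 45.9% of all protein-coding genes. TPM here is that of the chromatin-fraction RNA and says nothing of protein levels. It is a share of each library's total, of which the snoRNA genes held 26.1%, 41.0% and 42.2% in replicates 1, 2 and 3. A difference in TPM between libraries is therefore not read as a change of a protein gene. Among the Sm core genes, 6 of 8 reached this level. Snrpd1 was the highest with 7.66 ± 0.847 (SD, n = 3), and Snrpn, which codes for an Sm protein known from neurons, was listed at 0 in every library. The U1 proteins reached it in 3 of 3 cases. Snrnp70, which codes for the U1 protein that binds the first stem-loop of U1, had 317, 210 and 209 TPM in replicates 1, 2 and 3. Its estimated counts were 6346, 6270 and 5796. Snrpc averaged 5.59 ± 0.794 TPM.

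Of the U2 protein genes, 10 of 11 reached a TPM of 1 in every library. Sf3b1, whose product holds the branch point with U2, averaged 226 ± 10.5 (SD, n = 3), and Sf3b5, the lowest, 0.320 ± 0.0700. All 12 U4/U6 protein genes reached it, from Prpf3, a tri-snRNP protein, with 21.5 ± 3.67, to Lsm5 of the Lsm ring with 3.30 ± 1.26. All 11 genes of U5 and the tri-snRNP did as well, from the helicase gene Ddx23 with 42.5 ± 10.4 to Txnl4a with 2.04 ± 0.868. The minor spliceosome list had 7 of 8, with Zrsr2, which recognises the 3′ splice site of minor introns, at 47.8 ± 4.28 and Snrnp25, a U11/U12 protein gene, at 0.810 ± 0.225. Of the pair of U7 protein genes, Lsm10 averaged 2.93 ± 0.947 and Lsm11 1.14 ± 0.220, with Lsm11 under 1 in replicate 3. The counts of Lsm11 were 100, 152 and 99 in replicates 1, 2 and 3.

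Genes of snRNA transcription reached the level in 9 of 10 cases, from Snapc4, a subunit of the complex that binds snRNA promoters, with 47.8 ± 6.56 TPM (SD, n = 3), to Snapc2 with 1.66 ± 0.693. All 14 Integrator genes did, from Ints6 with 66.4 ± 12.6 to Ints5 with 2.31 ± 0.611. Export, assembly and import genes did in 15 of 18 cases, from Tgs1, the enzyme that trimethylates the snRNA cap, with 27.0 ± 2.43, to Gemin4 of the SMN complex with 0.407 ± 0.292. All 7 U6 maturation genes did, from Ssb, which codes for the La protein that binds new polymerase III transcripts, with 29.4 ± 0.780, to Larp7 with 5.21 ± 0.825.

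The 37 protein genes of the U1, U2, U4/U6 and U5 snRNPs had a median TPM of 13.1, 11.5 and 9.88 in replicates 1, 2 and 3. The 8 minor spliceosome protein genes had 19.4, 18.9 and 17.4. No gene of that list had a TPM near its median. It is the midpoint between Pdcd7, with 6.59, 4.69 and 6.06, and the next higher gene. That gene was Snrnp48 in replicate 1, with 32.1, and Rnpc3 in replicates 2 and 3, with 33.1 and 28.8. The median of the 8, and with it the difference below, thus depends strongly on which genes are listed. The minor spliceosome also uses U5, so the 37 genes include some that are not particular to the major spliceosome. The values thus compare 2 gene lists, not 2 separate machineries. The difference in median log2(TPM + 1), the 37 genes minus the 8, was -0.17, -0.16 and -0.41, a mean of -0.25 ± 0.14 (SD, n = 3). All 3 libraries had a negative difference. An exact permutation test that flips the signs of these 3 differences, two-sided, gave p = 0.25, which is its minimum with 3 libraries, so a p of 0.05 was out of reach.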

How the data were processed

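Chromatin-fraction RNA was measured in 3 libraries of 1 group. For each library the authors deposited a gene table with estimated (expected) counts, their read assignment standard deviation and TPM, a transcript table made the same way, which was not used here, and a second transcript table with estimated counts and TPM. The gene table derives from transcriptome alignments and the second table directly from the reads, both with mm10 and GENCODE M21, per the deposited readme files. Programs, versions and strand use were not given in the sources used here. Counts of overlapping genes on opposite strands are therefore uncertain.

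Members are the snRNA genes with a mean count of 5 or more. They, the gene lists and the alternatives were chosen with earlier results of these data known. The second table was summed per gene, and 86 of 55536 annotated genes were absent from it. Rows that name no annotated gene held 1.16%, 0.459% and 0.351% of the counts of replicates 1, 2 and 3 and were left out. A count of 0 allows up to 3 counts, or 0.191, 0.187 and 0.209 CPM, by counting error alone. This limit does not apply where read assignment is uncertain, as for Gm24497 in replicate 1, or where the effective length is 0. Intervals and limits cover counting error only, as reads counted with no molecular identifier need not be independent molecules. Counts were rounded to whole numbers for scaling only, with the TMM method of edgeR 4.0.16 (R 4.3.3) or, as an alternative, DESeq2 1.42.0 size factors. The scaling and ratio step was tested on simulated data. No library repeats another, since the chi-square of their counts was 13.1 to 30.5 per degree of freedom. Identity was the share of equal bases in a global alignment (Biopython 1.88, Python 3.11.15). Detection of protein genes needed a TPM of 1 in every library, and log2 values used a pseudocount of 1. No test was possible between groups, and no level of a member was tested.

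Genes were named by this rule: those with an Rnu symbol, the highest of each group, the 10 highest by mean count, the 5 with the largest ratio between the tables among those with a mean count of 50 or more, the 3 nearest each side of the minimum, the 3 highest within other genes, and the highest and lowest of each protein list. Others named were chosen after their values were seen.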

Additional observations from a re-analysis of the deposited data

How the results depend on the processing

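Of 94 values recomputed under an alternative setting, 72 stayed within the limits for no change, 20 moved and 2 changed sign. The alternatives that count distinct sequences, that change the table or unit of the ratio of U2-group to U1-group counts or leave out a replicate for it, and that order libraries in the second table were chosen after seeing the data. The number of snRNA genes past the minimum was 244 in the second table, and 18 when distinct sequences were counted. In TPM the members held 11.1% of the total, the U1 group 40.6%, the U2 group 51.1%, Rnu12 0.457% and the 141-base pair 7.82% of the members' sum, and the ratio of U2 to U1 was 1.35. In the second table Rnu12 held 2.53% and the 141-base pair 3.60%. The log2 ratio of member counts was -0.92 for replicate 1 and 1.02 for replicate 3 in the second table, and -0.16 for replicate 2 and 0.79 for replicate 3 with total counts only, a scaling that shifts the median of all genes by -0.03, 0.14 and -0.14 for replicates 1, 2 and 3. Against 1 other replicate, it ranged from -1.10 to -0.34 for replicate 1, from -0.76 to 0.34 for replicate 2, which changed sign without replicate 3, and from 0.76 to 1.10 for replicate 3. Assignment standard deviations of 50% or more were found for 13 members. The median log2 ratio of the second over the gene table was -2.01 for TPM in place of counts. The cause of these changes was not tested. No paired analysis was possible because there was a single group.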
